A study of Mus musculus with 5 samples.

Results

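Dendritic cells of murine small cell lung cancer (SCLC) were examined in single-cell RNA sequencing data of lung tumours, and 345 of 86606 barcodes that passed the quality filters were chosen as dendritic cells. A barcode was chosen when more than 150 genes and at most 20% mitochondrial UMIs were found in it, with at least 1 unique molecular identifier (UMI) of Flt3, Xcr1, Clec9a, Cd209a, Siglech or Zbtb46 and at least 5 UMIs of the MHC class II genes H2-Aa, H2-Ab1, H2-Eb1 and Cd74. It also had at most 1 UMI of the complement genes C1qa, C1qb and C1qc, which mark macrophages, and 0 UMIs of Cd3e, Cd79a, Ms4a1 and Siglecf, which mark T cells, B cells and alveolar macrophages. These genes chose the members, so their levels are given as a description without a test. All tumours came from mice floxed at both tumour suppressor genes (Rb1 fl/fl and Trp53 fl/fl), in which adenoviral Cre given into the trachea deletes both genes in lung cells. The mice then received vehicle (phosphate-buffered saline), anti-PD-1, the ERBB2 inhibitor mubritinib (ERBB2i) or both agents together, every 3 days and at 10 mg/kg for each agent. A further library of the combination carries the label in response. The sample labels name epithelial cells of neuroendocrine origin, although the whole tumour tissue was dissociated. Each of the 5 groups is 1 library, so no difference between treatments could be tested against replicates, and intervals below cover counting error only.

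Dendritic cells take up antigen, carry it to lymph nodes and present it to T cells. They develop from bone marrow progenitors under the cytokine receptor Flt3. Type 1 conventional dendritic cells, marked by Xcr1 and Clec9a, take up material of dying cells and cross-present it on MHC class I to CD8 T cells, whereas type 2 conventional cells, many of which carry Cd209a, present mainly on MHC class II to CD4 T cells. Plasmacytoid dendritic cells, marked by Siglech, are specialised for interferon production. Conventional cells that mature lose part of their subtype genes and gain the lymph node homing receptor Ccr7.

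The libraries stood apart in ways that touch the dendritic cells. They held between 9718 and 27210 barcodes, with median UMIs per barcode between 1225 and 5281. Neuroendocrine tumour barcodes numbered 8056 with vehicle, 4732 with anti-PD-1, 14960 with ERBB2i and 18781 with the combination, but 4 with the combination in response, where 6826 barcodes met the T cell gate. Barcode sequences were 24 bases long with ERBB2i and combination and 27 bases long in the others. The same barcode sequence occurred in both ERBB2i and combination 782 times and in pairs of the other libraries between 69 and 79 times, and no chosen barcode was shared between libraries.

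The rule found dendritic cells in every library. There were 14 with vehicle, 37 with anti-PD-1, 137 with ERBB2i, 141 with the combination and 16 with the combination in response. As a share of the barcodes that passed the filters, this was 0.145% with vehicle (exact Clopper-Pearson 95% interval 0.0791 to 0.243%), 0.278% with anti-PD-1 (0.196 to 0.383%), 0.521% with ERBB2i (0.438 to 0.616%), 0.518% with the combination (0.436 to 0.611%) and 0.158% with the combination in response (0.0904 to 0.257%). The intervals of the ERBB2i and combination libraries lay above those of the other 3 libraries, and those of vehicle and combination in response overlapped. The separation from anti-PD-1 was lost in 4 stricter choices. With at least 2 rule UMIs anti-PD-1 had 0.210% (0.140 to 0.304%), ERBB2i 0.293% (0.231 to 0.366%) and combination 0.221% (0.168 to 0.284%). The combination interval then also overlapped those of vehicle and combination in response. The ERBB2i interval just overlapped that of combination in response, which reached 0.232%. With at least 10 MHC class II UMIs anti-PD-1 had 0.270% (0.189 to 0.374%), against lower bounds of 0.337% for ERBB2i and 0.322% for combination. With barcodes thinned to 1000 UMIs its interval reached 0.327% and that of combination in response 0.292%, against lower bounds of 0.279% and 0.234%. Without members that had at least 3 UMIs of the T cell, B cell or tumour lists it reached 0.204%, against 0.191% and 0.175%. Tumour or T cell barcodes dominate the denominators, so the order changed when shares were taken of barcodes with a UMI of Ptprc, the pan-leukocyte gene. Only members with a Ptprc UMI were counted here, 13 with vehicle, 87 with ERBB2i and 93 with the combination. The share was then 2.77% with vehicle (1.48 to 4.69%), 1.54% with ERBB2i (1.23 to 1.89%) and 1.86% with the combination (1.51 to 2.28%). It was 0.5% with anti-PD-1 (0.332 to 0.722%) and 0.157% with the combination in response (0.0859 to 0.263%). Vehicle was highest, but its interval overlapped those of ERBB2i and combination. C1q macrophages, chosen by the same rule but with at least 2 C1q UMIs and none of the 6 dendritic cell genes, numbered 131, 30, 228, 531 and 8 with vehicle, anti-PD-1, ERBB2i, combination and combination in response. There were thus 10.7 dendritic cells per 100 macrophages with vehicle, 123 with anti-PD-1, 60.1 with ERBB2i, 26.6 with the combination and 200 with the combination in response, the last over 8 macrophages. A share of cells cannot tell more dendritic cells from fewer other cells. The depth of the members also differed, with median UMIs of 4449.5 with vehicle, 3813 with anti-PD-1, 2722 with ERBB2i, 2377 with the combination and 7245.5 with the combination in response.

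Membership rested on few UMIs for many barcodes. Of the 345 members, 154 had a single UMI of the 6 dendritic cell genes and 191 had more. The MHC class II sum was 5 to 9 UMIs in 69 members and 10 or more in 276, with a median of 47 and a maximum of 1181. Just outside the rule lay 150 barcodes with 3 to 4 MHC class II UMIs, 59 with at least 2 C1q UMIs and 122 with a UMI of Cd3e, Cd79a, Ms4a1 or Siglecf.

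Members were grouped by which rule genes they carried. Xcr1 or Clec9a without another subtype gene was found in 77 members, Cd209a in 82 and Siglech in 22, while 18 members carried more than 1 of these subtypes. Of the rest, 52 had only Flt3, 12 had Flt3 and Zbtb46, and 82 had only Zbtb46, a transcription factor gene of conventional dendritic cells. Xcr1 and Clec9a were found together in 23 members, whereas Xcr1 and Cd209a were found together in 0 of 345. Siglech shared 12 members with Cd209a, 6 with Clec9a and 1 with Xcr1.

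The genes that separate the subtypes lie on different chromosomes of the mouse genome (GRCm38.p6, the RefSeq counterpart of the mm10 build named in the submitters' processing notes). Xcr1, the receptor for the chemokine Xcl1, lies on the minus strand at chr9:123852315-123862029. Cd209a, a C-type lectin gene, lies on the minus strand at chr8:3743395-3748984. Siglech, a sialic acid-binding lectin gene, lies on the plus strand at chr7:55768154-55779448. The 250 bases before the RefSeq start of each (for Siglech a start inside the gene interval) are shown in the direction of transcription. Together with Clec9a, which is not shown, these 3 genes decide the subtype group of a member. E boxes are in capitals (CANNTG, which reads the same on both strands, the site class of E proteins such as Tcf4 of plasmacytoid dendritic cells).
Xcr1, chr9:123862030-123862279, minus strand: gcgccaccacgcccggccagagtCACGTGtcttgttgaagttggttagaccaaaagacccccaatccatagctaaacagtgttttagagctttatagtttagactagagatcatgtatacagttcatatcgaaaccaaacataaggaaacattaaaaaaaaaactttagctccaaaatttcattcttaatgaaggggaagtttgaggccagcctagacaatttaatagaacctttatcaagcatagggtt
Cd209a, chr8:3748985-3749234, minus strand: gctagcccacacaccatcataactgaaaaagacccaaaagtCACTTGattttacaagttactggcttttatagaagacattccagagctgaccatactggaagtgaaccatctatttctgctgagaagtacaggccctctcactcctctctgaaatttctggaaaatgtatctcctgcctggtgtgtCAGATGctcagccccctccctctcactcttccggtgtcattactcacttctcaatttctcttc
Siglech, chr7:55767934-55768183, plus strand: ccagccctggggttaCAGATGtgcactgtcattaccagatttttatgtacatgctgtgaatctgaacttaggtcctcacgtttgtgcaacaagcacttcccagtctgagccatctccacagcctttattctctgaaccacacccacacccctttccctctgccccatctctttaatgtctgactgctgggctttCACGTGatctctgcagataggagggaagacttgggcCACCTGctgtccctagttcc
The windows hold 1, 2 and 3 E boxes. Of 32851 RefSeq windows of the same 250 bases before a start, 66.2% hold an E box, so a match describes the letters only. Motifs of the transcription factors PU.1 with IRF and of IRF were also searched. They were in 0 of the 6 rule gene windows and in 2.30% and 2.98% of all windows.

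The Xcr1 members matched their label most closely. The 45 members with an Xcr1 UMI and no Cd209a or Siglech carried 30220 CPM (UMIs per 1000000 UMIs of the class) of the general dendritic cell list, 17 genes outside the rule of which 16 were measured, against 2911 in C1q macrophages. Cst3, a cysteine protease inhibitor gene of this list that is high in dendritic cells, gave 5097 of its 8282 UMIs in all members here and was found in all 45. Naaa, a lysosomal amidase gene, gave 375 UMIs in 38 of these members, and Ppt1, a lysosomal thioesterase gene of cross-presenting cells, gave 601 in 39. The interferon-inducible gene Ifi205 gave 214 UMIs in 35 members and Gcsam gave 41 in 20. Wdfy4, which is required for cross-presentation, gave 137 UMIs. The summed list of type 1 genes outside the rule reached 8100 CPM, whereas the type 2 list stood at 377. The type 1 list was high in each library with at least 4 such members, at 7267 CPM with anti-PD-1 (14 members), 7210 with ERBB2i (4 members), 7176 with the combination (17 members) and 9848 with the combination in response (8 members).

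Clec9a without Xcr1 marked another kind of barcode in one library. Of 32 such members, 26 came from combination, 4 from ERBB2i, 1 from anti-PD-1, 1 from combination in response and 0 from vehicle. In combination, 22 of the 26 carried Chil3, a chitinase-like gene of monocytes and alveolar macrophages, 18 of them with at least 5 UMIs, and 21 had a single UMI of the 6 dendritic cell genes. Over all 32, the monocyte list reached 16548 CPM against 1011 in the Xcr1 members, and the general dendritic cell list stood at 4335 against 30220. Lyz2 gave 1235 UMIs, Cybb 601, Ctsk 295, Fabp4 79 and Marco 65, the last 2 being genes of alveolar macrophages. All 674 Chil3 UMIs of dendritic cells were in the combination library, in 42 of its 141 members, with 0 in each of the other 4 libraries. Among all barcodes of that library with at least 5 Chil3 UMIs, 30 of 715 (4.2%) had a Clec9a UMI, beside 0.154% of its tumour barcodes. Since these members met the rule with a general dendritic cell list near that of macrophages, the Xcr1 members are given apart from them.

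Cd209a members carried type 2 genes. Their type 2 list, 17 genes of which 16 were measured, stood at 4256 CPM and their type 1 list at 1442. Mgl2, a lectin gene of type 2 cells, gave 106 of its 120 UMIs in 16 of these 82 members. Clec10a gave 53 UMIs, the transcription factor gene Irf4 gave 17, and Cd7 gave 139. Cd7 was not particular to these members, at 513 CPM against 956 in the Siglech members. Ifitm1, Il1r2, Ms4a6b, Ms4a6d and Ms4a4c were also among the genes that led over the other members. The median sum of the monocyte list was 7.5 UMIs per Cd209a member, against 4 per Xcr1 member and 21 per Siglech member. The inflammatory cytokine gene Il1b gave 194 UMIs in 35 members, the co-stimulatory ligand gene Tnfsf9 82 and the chemokine receptor gene Ccr2 89. The type 2 list stood at 7688 CPM with vehicle (3 members), 6020 with anti-PD-1 (4 members), 4275 with ERBB2i (49 members) and 3518 with the combination (26 members). With vehicle, 1 barcode gave 67 of these UMIs and the others 14 and 8, so that level rests on a single member.

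Many but not all Siglech members and members with more than 1 subtype gene carried plasmacytoid genes. The plasmacytoid list of 21 genes stood at 12835 CPM in the 22 Siglech members and at 15725 in the 18 mixed members, against 1357 in the Xcr1 members and 1427 in the Cd209a members. In the Siglech group, Ly6d, a surface gene of plasmacytoid precursors, gave 122 UMIs, the mitochondrial subunit gene Cox6a2 68, the kallikrein gene Klk1 57 and the homing receptor gene Ccr9 21. Tcf4, the E protein gene that plasmacytoid cells depend on, gave 73 UMIs in 16 of the 22 members. In the mixed group, Ly6d gave 195 UMIs, Tcf4 99, Klk1 57 and Ccr9 34. The UMIs of the plasmacytoid list ranged from 0 to 146 per Siglech member, with a median of 29, and 8 of the 22 had at most 6, as did 5 of the 18 mixed members. Siglech members also had a monocyte list at 7865 CPM, of which Ly6c2, also expressed by plasmacytoid cells, gave 238 UMIs.

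Mature genes were concentrated where no subtype gene was found. The mature migratory list stood at 9577 CPM in the 52 members with only Flt3 and at 10300 in the 12 members with Flt3 and Zbtb46, against 1046 to 1946 in the subtype groups and 3055 in those with only Zbtb46. Ccr7 gave 86 and 14 UMIs in the first 2 groups, out of 153 in all members. Fscn1, an actin-bundling gene of migrating dendritic cells, gave 125 and 17 of 214 UMIs. Relb, an NF-kappaB subunit gene, gave 76 and 15 UMIs, and the amino acid oxidase gene Il4i1 gave 84 and 10. The chemokine gene Ccl5 gave 389 and 21 of 698 UMIs, and Il12b, a subunit of the T cell-priming cytokine IL-12, gave 13 of 16 UMIs in the Flt3 members. At least 2 of 6 mature genes were found in 23 of 52 Flt3 members (44.2%, 30.5 to 58.7%), in 7 of 12 with Flt3 and Zbtb46, in 17 of 82 with only Zbtb46, in 2 of 77 with Xcr1 or Clec9a and in 57 of all 345. After each barcode was thinned to 500 UMIs, they were found in 13 of 52, 2 of 12, 4 of 82 and 1 of 77. In ERBB2i, 29 of 137 members had at least 2 mature genes (21.2%, 14.7 to 29.0%), with the combination 18 of 141 (12.8%, 7.74 to 19.4%), with anti-PD-1 5 of 37, with vehicle 3 of 14 and with the combination in response 2 of 16. The intervals of ERBB2i and combination overlapped, and at equal depth the counts were 8 of 137 and 9 of 141.

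The members with only Zbtb46 matched their label least. Their general dendritic cell list stood at 2651 CPM, the lowest of the 7 groups and below the 2911 of C1q macrophages, and their neuroendocrine tumour list at 3813, the highest. Of these 82 members, 75 had a single rule UMI, 40 had only 5 to 9 MHC class II UMIs, 58 had at least 3 UMIs of the tumour list and 31 had a Ptprc UMI. Others among them carried dendritic cell genes, with a Ccr7 UMI in 19 and at least 5 UMIs of the general dendritic cell list in 46. Zbtb46 was found in 7.93% of the tumour barcodes of vehicle, 1.58% of anti-PD-1, 7.71% of ERBB2i and 6.46% of combination, and the other 5 genes each in at most 0.154% of tumour barcodes in any library. A vehicle member carried 4132 UMIs of the surfactant gene Sftpc. The Zbtb46 members came mainly from ERBB2i (39) and combination (39). Without them, 263 members were left, and the shares were 0.134% with vehicle, 0.263% with anti-PD-1, 0.373% with ERBB2i (0.303 to 0.454%), 0.375% with the combination (0.306 to 0.455%) and 0.148% with the combination in response. The ERBB2i and combination shares then still lay above vehicle and combination in response, but their intervals overlapped that of anti-PD-1 (0.183 to 0.365%). When members with only Clec9a were also left out, the share was 0.365% with ERBB2i (0.296 to 0.446%) and 0.287% with the combination (0.227 to 0.358%), and the combination interval then overlapped those of vehicle and combination in response as well.

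**Figure D1:**
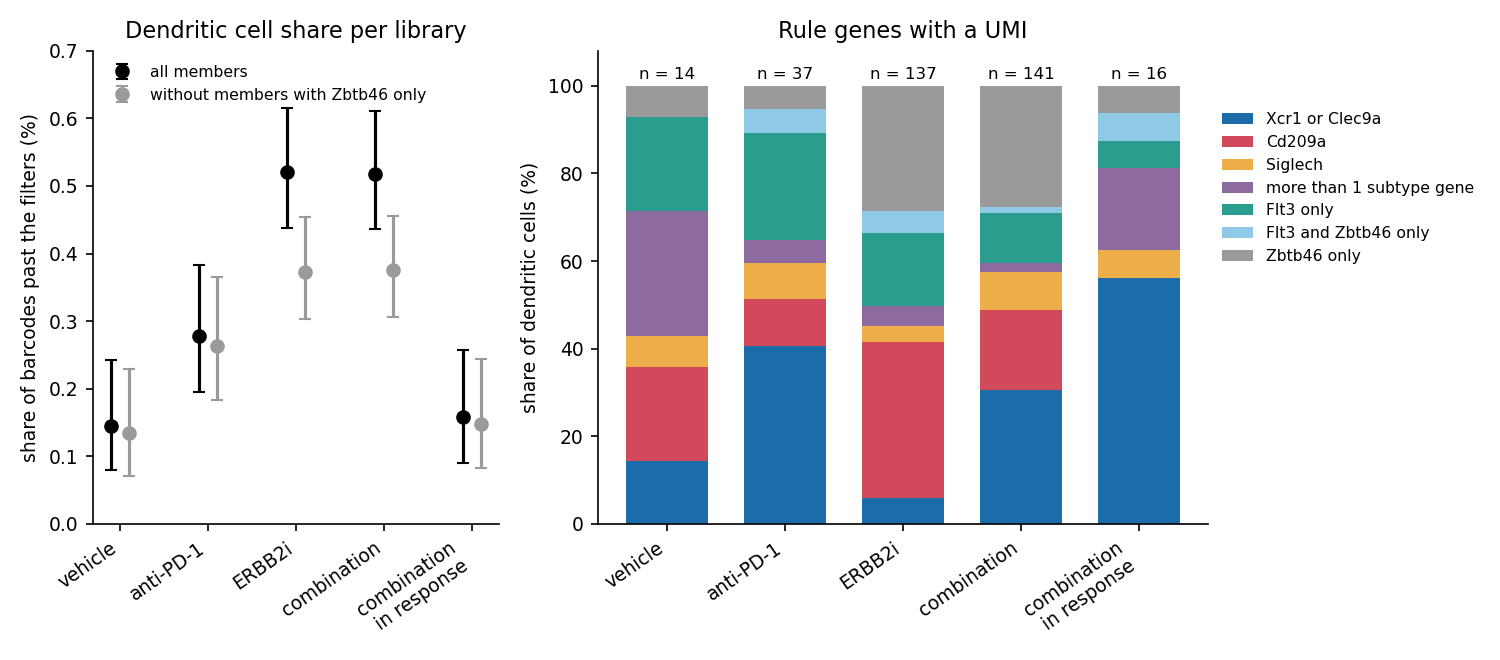
Share of dendritic cells per library in percent of barcodes past the filters, with exact 95% intervals, for all members (black) and without those that had only Zbtb46 (grey), beside the makeup of each library's dendritic cells by rule genes in percent. ERBB2i and combination had the highest shares, 0.521% and 0.518%, and held 39 each of the Zbtb46 members.

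**Figure D2:**
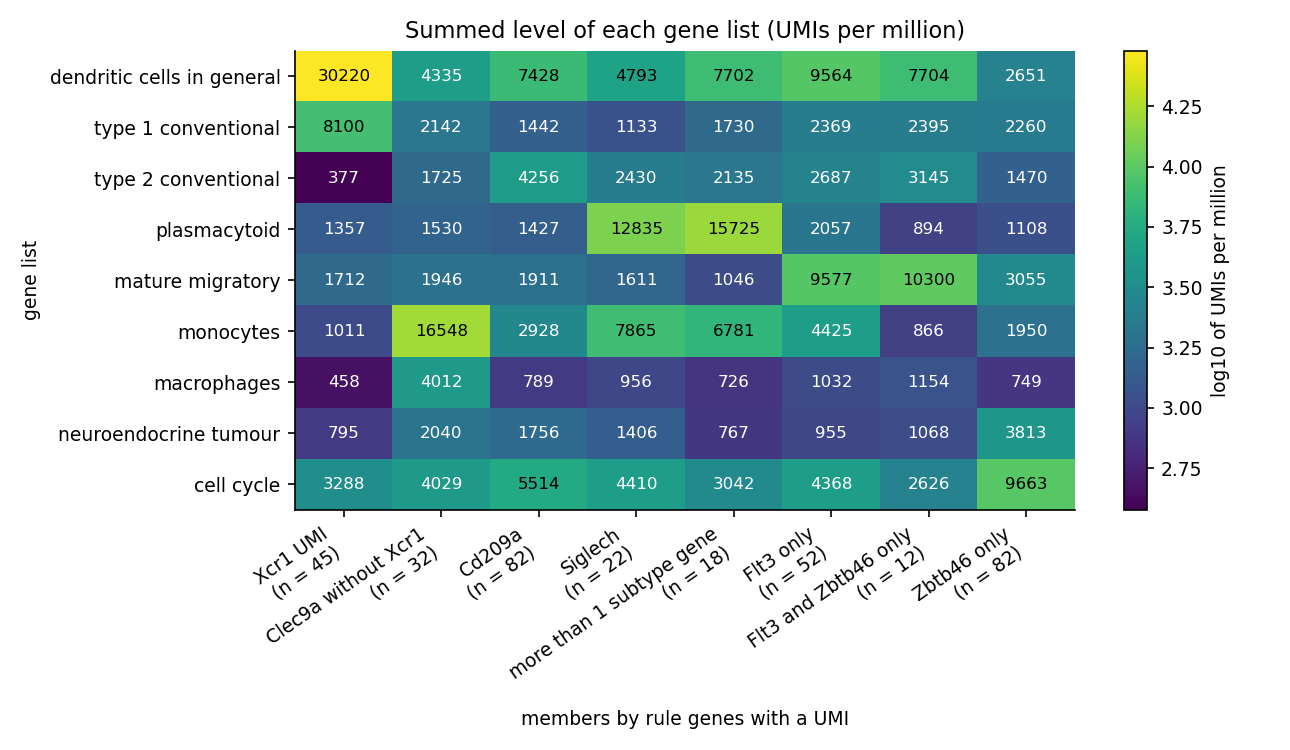
Summed CPM of each gene list (rows, outside the rule) in the members grouped by rule genes (columns, all libraries pooled), with the colour on a log10 scale. The type 1 list reached 8100 in Xcr1 members, the plasmacytoid list 12835 in Siglech members, the mature list 9577 in Flt3 members and the monocyte list 16548 in members with Clec9a but not Xcr1.

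**Figure D3:**
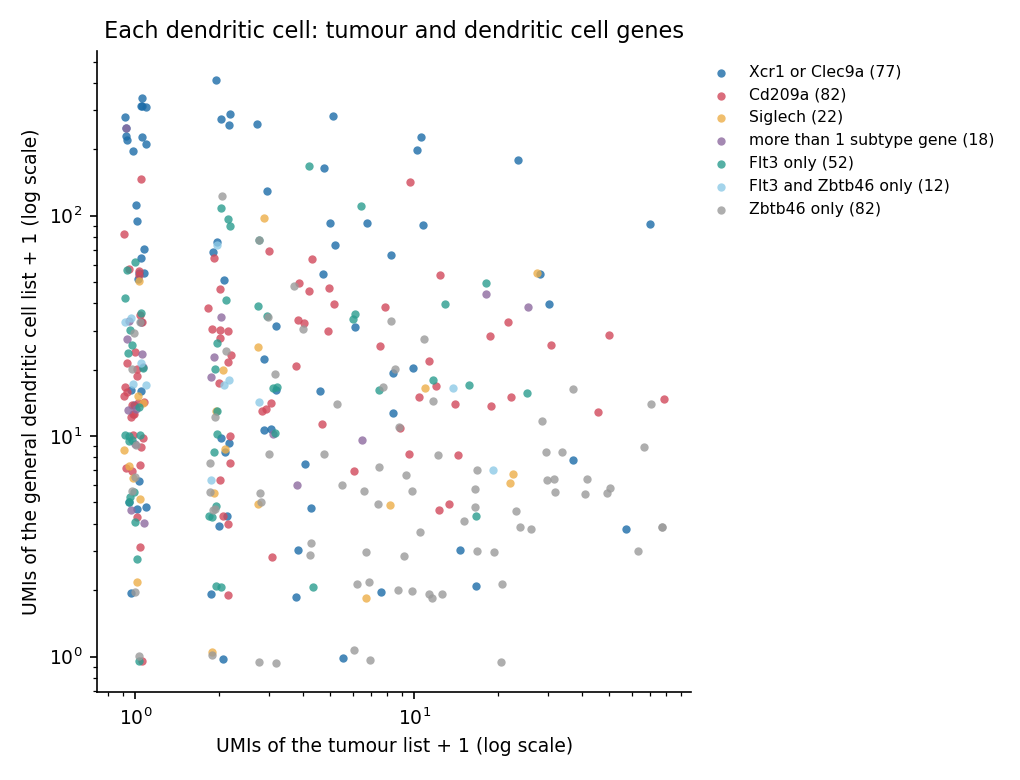
UMIs of the tumour list (x axis) and of the general dendritic cell list (y axis) in each of the 345 members, both plus 1 and on log scales, with points slightly scattered and coloured by rule genes. Members with only Zbtb46 lie toward many tumour UMIs and few dendritic cell UMIs, with medians of 7 and 5, and those with Xcr1 or Clec9a reach the highest dendritic cell sums.

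The makeup by rule genes differed between libraries, in part only at unequal depth. The Xcr1 or Clec9a group was 8 of 137 members with ERBB2i (5.84%, 2.55 to 11.2%), 15 of 37 with anti-PD-1 (40.5%, 24.8 to 57.9%), 43 of 141 with the combination (30.5%, 23.0 to 38.8%), 2 of 14 with vehicle and 9 of 16 with the combination in response. With Xcr1 alone as the marker, the counts were 4 of 137 with ERBB2i (2.92%, 0.801 to 7.31%), 14 of 37 with anti-PD-1 (37.8%, 22.5 to 55.2%), 17 of 141 with the combination (12.1%, 7.18 to 18.6%), 2 with vehicle and 8 with the combination in response. The anti-PD-1 interval lay above both others on this marker, and those of ERBB2i and combination just overlapped. The Cd209a group was 49 of 137 with ERBB2i (35.8%, 27.8 to 44.4%), 26 of 141 with the combination (18.4%, 12.4 to 25.8%), 4 of 37 with anti-PD-1 (10.8%, 3.03 to 25.4%), 3 of 14 with vehicle and 0 of 16 with the combination in response, where counting error allows up to 20.6%. The Siglech group was 12 of 141 with the combination, 5 of 137 with ERBB2i, 3 of 37 with anti-PD-1 and 1 each with vehicle and combination in response, with overlapping intervals. The Xcr1 members had more UMIs than others, with a median of 4352 against 2794.5 for Cd209a members. With every member thinned to 500 UMIs, the Xcr1 or Clec9a group was 1.46% of ERBB2i (0.177 to 5.17%), 21.6% of anti-PD-1 (9.83 to 38.2%) and 12.1% of combination (7.18 to 18.6%). The order was the same, but the intervals of anti-PD-1 and combination overlapped. Xcr1 alone was not counted after thinning. The thinned Cd209a share was 19.0% (12.8 to 26.6%) with ERBB2i and 12.1% (7.18 to 18.6%) with the combination, so that these intervals overlapped. They also did under a mitochondrial limit of 8% together with filters on the median absolute deviation (19.1 to 38.6% and 6.33 to 23.97%). With at least 2 UMIs of a subtype gene, the Xcr1 or Clec9a intervals of ERBB2i (1.20 to 8.31%) and combination (4.48 to 14.4%) overlapped. Whether the libraries' tissue pieces differed in content was not tested.

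Because both classes came from the same tumours, dendritic cells were compared with C1q macrophages across the 3 libraries with at least 20 barcodes of each (anti-PD-1, ERBB2i and combination), on UMIs summed per library. Of 7350 genes outside the rule, 112 were higher (1.52%) and 577 lower (7.85%) in dendritic cells by edgeR's quasi-likelihood test with the library as a block, at an adjusted p under 0.05. The counts rest on single libraries: they were 388 and 1021 without anti-PD-1, 62 and 290 without combination, and 48 and 273 without ERBB2i. Without the block they were 28 and 195, and the 16 genes named by size below passed the threshold under all alternatives in which they were tested. Of the members summed, 39 of 137 with ERBB2i, 39 of 141 with the combination and 2 of 37 with anti-PD-1 had only Zbtb46. No refit left out these members alone, and their part in the calls was not tested. Without barcodes that had at least 3 UMIs of the T cell, B cell or tumour lists, 134 of 4895 genes were higher and 286 lower. That refit held 2 libraries, because anti-PD-1 kept 17 dendritic cells.

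Named by size, 8 genes were higher in dendritic cells. Btla, an inhibitory receptor gene, stood at 129 CPM of dendritic cells with anti-PD-1, 83.5 with ERBB2i and 42.0 with the combination, and at 0, 1.34 and 0.470 in the macrophages of the same libraries. Its log2 fold change was 5.68 ± 0.60 (SE, edgeR adjusted p = 3.7e-05). Cd7 stood at 323, 237 and 134 CPM in dendritic cells and at 0, 4.02 and 3.29 in macrophages, a log2 fold change of 5.24 ± 0.39 (adjusted p = 2.88e-06, edgeR). Adam23, a disintegrin gene, had 12, 36 and 15 UMIs in dendritic cells and 0 in all macrophages, at least 57.8-fold higher against a floor of 3 UMIs over the 3 libraries. Klrd1, Klk1, Siglecg, Bcl11a and Zfp366 followed with log2 fold changes from 4.12 to 5.21. Bcl11a, a transcription factor gene of plasmacytoid and lymphoid development, had 91 UMIs in dendritic cells and 7 in macrophages.

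Named by size, 8 genes were lower in dendritic cells. Ccl12, a monocyte-attracting chemokine gene, had 11, 634 and 401 UMIs in the macrophages of anti-PD-1, ERBB2i and combination and 0 in every dendritic cell of the 5 libraries, at least 127-fold lower by the same floor. Ccl8 was at least 35.4-fold lower and Cd5l, a scavenger receptor gene of resident macrophages, at least 23.5-fold lower. C3ar1, a complement receptor gene, stood at 426, 281 and 281 CPM in macrophages and at 0, 2.26 and 0 in dendritic cells (log2 fold change -8.34 ± 0.53, edgeR adjusted p = 1e-06). Itga9, Olfml3, Ms4a14 and Bach2os had 0 UMIs in the dendritic cells of these libraries.

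The lists that were not part of the rule also differed between the classes. Both classes were cut on dendritic cell and C1q genes, so genes expressed along with these separate by the choice itself. The lists below therefore describe the classes and do not check their labels. Of the 16 general dendritic cell genes tested, 13 were higher in dendritic cells and 1 lower, with a median log2 fold change of 2.00 against -0.02 over all genes. H2-Oa, which tunes peptide loading on MHC class II, stood at 375, 158 and 109 CPM in dendritic cells of anti-PD-1, ERBB2i and combination and at 36.5, 6.70 and 14.6 in macrophages (log2 fold change 3.11 ± 0.35). Cst3 was higher by 1.18 ± 0.27 on the log2 scale, whereas Itgax, which encodes the integrin CD11c and is shared with macrophages, was lower at -1.39 ± 0.27. All 15 macrophage genes tested were lower, with a median of -3.63, led by Ms4a7 (-7.50 ± 0.48) and the lipoprotein gene Apoe (-7.16 ± 0.38). Apoe stood at 38.8, 158 and 143 CPM in dendritic cells and at 6906, 21735 and 11462 in macrophages. Of 12 monocyte genes, 6 were lower, among them the macrophage colony-stimulating factor receptor gene Csf1r (-3.75 ± 0.30), and 3 were higher, among them Plac8 and Ly6c2, which is also on the plasmacytoid list.

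The subtype lists were split in the same comparison. Of 11 type 1 genes tested, 4 were higher and 0 lower, namely Itgae, which encodes the integrin CD103, at 3.91 ± 0.57, Wdfy4 at 1.75 ± 0.29, Ifi205 at 1.53 ± 0.35 and Cd24a at 1.33 ± 0.28. Of 12 type 2 genes, 5 were higher, Cd7, Clec10a, S100a4, Mcemp1 and Epcam, and 2 were lower, the phagocytosis checkpoint gene Sirpa at -2.10 ± 0.29 and Il1b at -1.38 ± 0.27. S100a4 was lower than in macrophages with anti-PD-1, at 452 against 512 CPM. Of 15 plasmacytoid genes, 5 were higher, with Klk1 at 5.03 ± 0.60 and Ly6d at 3.72 ± 0.38, and 5 were lower, Pltp, Grn, Lair1, Tlr7 and Bst2. Tlr7 was higher than in macrophages with anti-PD-1, at 45.2 against 24.4 CPM. Epcam is also a tumour gene, and of the 9 tumour genes tested it was the only one called, at 1.11 ± 0.27, beside a list median of 0.55.

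Antigen presentation genes did not move as one. Of 10 MHC class II pathway genes outside the rule, H2-Ob, H2-Oa and H2-DMb2, which regulate peptide exchange, were higher by 2.41 to 3.24 on the log2 scale, and the lysosomal proteases Lgmn and Ctss were lower at -3.99 ± 0.29 and -2.54 ± 0.27. Of 18 MHC class I pathway genes, Wdfy4 was higher, and Cybb at -1.26 ± 0.32 and B2m, the invariant chain of MHC class I, at -1.10 ± 0.27 were lower. Of 17 interferon-stimulated genes, 0 were higher and 8 lower, with a list median of -1.12. Isg15 stood at 246, 56.4 and 103 CPM in dendritic cells and at 524, 121 and 309 in macrophages, lower in each of the 3 libraries (-1.54 ± 0.27, edgeR adjusted p = 0.00164).

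Mature and co-stimulatory genes went both ways. Of 19 mature genes tested, 4 were higher, Ccr7, Nudt17, Ccl17 and Cacnb3, and 0 lower. Cacnb3 was lower than in macrophages with anti-PD-1, at 32.3 against 36.5 CPM. Ccr7 stood at 32.3, 244 and 73.5 CPM in dendritic cells of anti-PD-1, ERBB2i and combination and at 146, 12.1 and 1.88 in macrophages, so it was lower than in macrophages with anti-PD-1 and higher in the other 2 libraries (2.92 ± 0.77, adjusted p = 0.0264, edgeR). The anti-PD-1 macrophages are 30 barcodes. Of 16 co-stimulation and cytokine genes, Ccl17, which attracts regulatory and helper T cells, Icosl (2.19 ± 0.41) and Tnfsf9 (1.55 ± 0.41) were higher. Tnfsf9 was lower than in macrophages with anti-PD-1, at 6.46 against 36.5 CPM. The T cell-attracting chemokine genes Cxcl9 and Cxcl10 were lower at -4.05 ± 0.55 and -1.86 ± 0.41, as were Vsir, Cxcl16, Lgals9 and Tgfb1. Cd274, which encodes PD-L1, had a log2 fold change of -0.60 ± 0.32 (adjusted p = 0.331) and Cd86 of -0.74 ± 0.30 (adjusted p = 0.173), and neither passed the threshold of the edgeR test. Of 15 cell cycle genes, Ube2c alone was called higher, at a list median of 0.58.

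**Figure D4:**
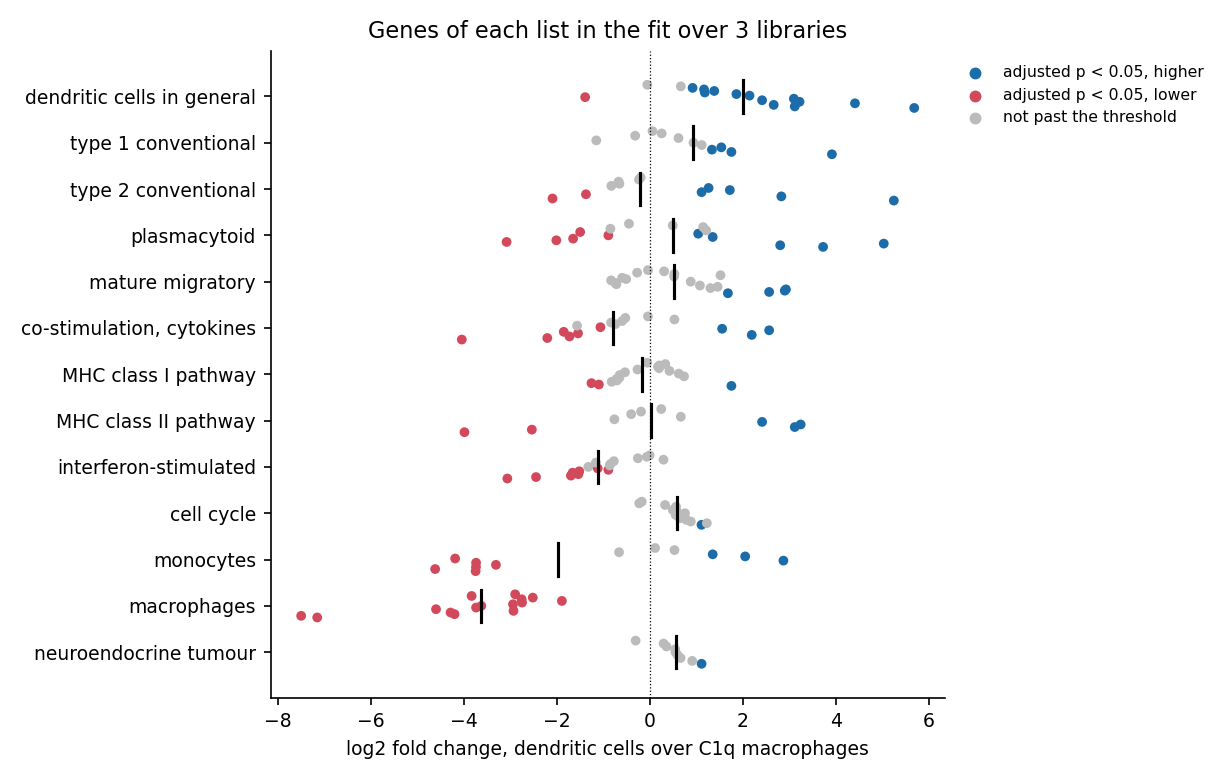
Log2 fold change of dendritic cells over C1q macrophages (x axis) for the tested genes of each list (y axis), from the edgeR fit over 3 libraries. Coloured points passed an adjusted p of 0.05, grey points did not, and bars mark list medians, from -3.63 for macrophage genes to 2.00 for general dendritic cell genes.

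The subtype groups were compared with each other on UMIs summed per library where a group had at least 3 members, with the library as a block. The sums numbered 11, and only anti-PD-1, ERBB2i and combination held all 3 groups. In the Xcr1 or Clec9a group of combination, 26 of 43 members had Clec9a but not Xcr1. No refit of the contrasts with this group left these members out, and their part in the calls was not tested. Between the Xcr1 or Clec9a group and the Cd209a group, 5 of 616 genes were higher (0.812%) and 9 lower (1.46%). Ppt1 gave 219 UMIs in the Xcr1 or Clec9a group of anti-PD-1, 18 with ERBB2i, 79 with the combination and 275 with the combination in response, and 1, 11 and 3 in the Cd209a groups of anti-PD-1, ERBB2i and combination, beside 1 UMI in that of vehicle. Its log2 fold change was 3.99 ± 0.74 (edgeR adjusted p = 1.39e-05). Ifi205 (2.98 ± 0.71), Naaa (2.87 ± 0.68), the pore-forming gene Mpeg1 (2.67 ± 0.67) and Cst3 (2.40 ± 0.59) were also higher. Cd7 was lower at -5.08 ± 0.84, with 3, 0, 1 and 0 UMIs in the Xcr1 or Clec9a group of the same 4 libraries and 22, 77 and 31 in the Cd209a groups of the first 3. The antiviral membrane genes Ifitm1 (-4.38 ± 0.79) and Ifitm3 (-2.88 ± 0.64), Ms4a4c (-3.66 ± 0.83) and the calcium-binding gene S100a4 (-3.61 ± 0.79) were lower too. Without ERBB2i 5 genes were called in all and without combination 7, and a fit limited to sums of at least 10 members without the block called 0 of 3223 genes, with 160 at an unadjusted p under 0.05.

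Between the Siglech group and the Xcr1 or Clec9a group, 7 genes were higher (1.14%) and 18 lower (2.92%), and 8 were called in all without anti-PD-1 and 9 without ERBB2i. Ly6d gave 24 UMIs in the Siglech group of anti-PD-1, 31 with ERBB2i and 61 with the combination against 3, 0 and 0 in the Xcr1 or Clec9a group (log2 fold change 6.40 ± 0.89, edgeR adjusted p = 5.32e-10). Cd7 (4.95 ± 0.86), Ly6c2 (4.89 ± 0.77) and Ly6a (3.47 ± 0.73) were higher as well. Aif1 (-4.96 ± 0.94), BC028528 (-4.94 ± 1.16), Ifi205 (-4.69 ± 0.95), Naaa (-4.17 ± 0.80) and Cst3 (-4.15 ± 0.67) were lower. The median over all 616 genes was -0.59 in this fit and 0.02 with DESeq2's size factors, under which 13 genes were higher and 9 lower. Against the Cd209a group, 3 genes were higher (0.487%), Ly6d (5.89 ± 0.86), Ly6c2 (3.93 ± 0.70) and Ly6a (2.81 ± 0.67), and 8 lower (1.3%), with Il1b at -5.56 ± 1.17, Ifitm1 at -3.84 ± 0.82 and the heat shock gene Hspa1a at -3.60 ± 0.93. Ly6a was not higher with anti-PD-1, at 1276 CPM in the Siglech group and 1357 in the Cd209a group. The median over all genes was -0.47 here, and DESeq2 gave 6 higher and 3 lower. The Siglech sums held 3, 5 and 12 barcodes.

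Between treatments, ratios were formed for combination against ERBB2i. Those with vehicle (14 dendritic cells) or combination in response (16) were not formed for lack of members, and pairs of anti-PD-1 with ERBB2i or combination were not among the chosen comparisons. Both libraries had barcodes of 24 bases. Over 5910 genes for which either library had 20 UMIs or more, the median log2 ratio of CPM was 0.02, with 501 genes over 2-fold higher with the combination (8.48%) and 467 over 2-fold lower (7.9%). With 1 library each, these are differences between a pair of libraries. Members with Clec9a but not Xcr1 were 26 with the combination and 4 with ERBB2i. No ratio left out these members alone, and their part in the list medians was not tested.

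Summed over all members, mature genes were lower in the dendritic cells of combination than in those of ERBB2i. Of 20 genes of the list, 8 were over 2-fold lower and 0 over 2-fold higher, with a median log2 ratio of -0.83 against 0.02 over all genes. Ccr7 stood at 73.5 CPM with the combination and 244 with ERBB2i, a log2 ratio of -1.73 (exact conditional 95% interval -2.32 to -1.17). Cd40, the receptor through which helper T cells license dendritic cells, gave 10 and 30 (-1.69, -2.89 to -0.62), and the co-stimulatory ligand gene Cd80 gave 19 and 43 (-1.28, -2.14 to -0.47). Cd274 gave 26 and 43 (-0.83, -1.59 to -0.09), whereas Marcks was higher, with 359 and 208 UMIs (0.68, 0.43 to 0.94). The median was -0.93 without the Zbtb46 members, and within the Cd209a group, where 5 mature genes could be measured, it was 0.07, with Ccl17 higher (1.49, 0.63 to 2.39) and Cd83 lower (-1.09, -1.93 to -0.33). Members with only Flt3, which carried most mature UMIs, were 23 of 137 with ERBB2i (16.8%, 10.95 to 24.1%) and 16 of 141 with the combination (11.3%, 6.63 to 17.8%), with overlapping intervals. Within the Flt3 members the mature list stood at 11001 CPM with ERBB2i and 10814 with the combination.

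Macrophage genes were the list with the largest difference. Of 12 genes, 8 were over 2-fold higher with the combination and the median log2 ratio was 3.82. Marco gave 72 UMIs with the combination and 0 with ERBB2i, at least 22.3-fold higher against a floor of 3 UMIs, and Fabp4 gave 94 and 4, Trem2 34 and 2. Of the dendritic cells' Marco UMIs, 65 of 72 lay in members with Clec9a but not Xcr1, and in the Cd209a group Marco had 0. Fabp5, with 149 and 139 UMIs, and Apoe, with 68 and 70, differed little. Among genes with at least 5 UMIs in both libraries, the 5 with the largest ratio were Lpl at 331 and 7 UMIs, Wfdc2 at 338 and 17, Slpi at 75 and 5, Sftpc at 100 and 7 and the chemokine gene Ccl6 at 555 and 42. Chil3 (674 and 0 UMIs), Ctsk (332 and 0) and Spp1 (549 and 4), named after their values were seen, had larger ratios but fewer than 5 UMIs with ERBB2i. Lower by size among genes with at least 5 UMIs in both were Hspa1b (8 and 120 UMIs), Nnat (192 and 1880), Cdh11 (6 and 57), the nonclassical MHC class I gene H2-T23 (22 and 173) and Gria2 (8 and 58). Sftpc, Slpi and Wfdc2 are genes of lung epithelium, Lpl is a lipid gene of alveolar macrophages, and Nnat and Gria2 are neuronal genes. The tumour list moved in the same comparison, with a median of 0.45 over all members and 1.33 in the Cd209a group.

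Dendritic cell and presentation lists went both ways between combination and ERBB2i. The general dendritic cell list had a median log2 ratio of -0.57, with 4 of 16 genes over 2-fold lower and 0 over 2-fold higher, and the MHC class II pathway outside the rule had a median of -0.56 over 10 genes. The MHC class I pathway stood at 0.07 over 18 genes and the interferon-stimulated list at 0.16 over 11. Of 18 growth factor and lineage factor genes, 6 were over 2-fold lower and 1 higher (median -0.69), and of 15 cell cycle genes 2 were lower and 1 higher (median -0.33). Of 13 type 2 genes, 2 were over 2-fold higher and 1 lower (median -0.52), and of 14 plasmacytoid genes 5 were higher and 0 lower (median 0.12, but -0.74 in the Cd209a group). Of 11 type 1 genes, 5 were over 2-fold higher and 1 lower, with a median of 0.30, which turned to -0.23 over 7 genes without members that had at least 3 UMIs of the T cell, B cell or tumour lists. Ppt1 gave 96 UMIs with the combination and 44 with ERBB2i, Ifi205 57 and 26, and Batf3 23 and 49. Of 16 co-stimulation genes, 4 were over 2-fold higher and 4 lower. Cxcl10 gave 32 and 4 UMIs (2.90, 1.40 to 4.86) and Cxcl9 21 and 0, whereas Tnfsf9 gave 21 and 89 (-2.19, -2.95 to -1.49). Tnfsf9 was also lower with the combination within the Cd209a group, with 9 and 72 UMIs, as was Il1b, with 25 and 156.

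**Figure D5:**
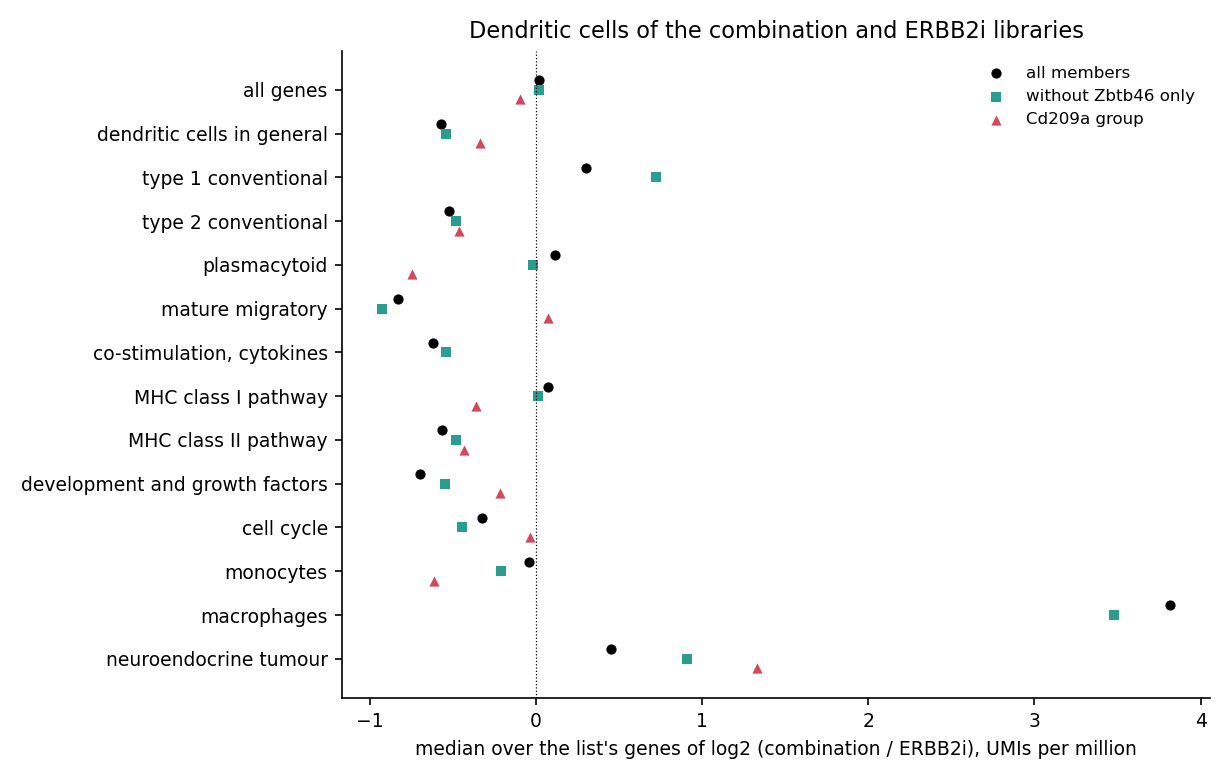
Median log2 ratio of combination over ERBB2i (x axis, CPM of the dendritic cells) over the genes of each list (y axis), for all members (circles), without those that had only Zbtb46 (squares) and within the Cd209a group (triangles, lists with at least 5 measured genes). The mature list lay at -0.83, -0.93 and 0.07, and the macrophage list at 3.82 over all members.

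Genes of other cell types were present in the dendritic cells of each library in different amounts. The T cell list outside the rule stood at 1427 CPM with the combination in response, where T cells are most frequent, 679 with anti-PD-1, 427 with vehicle, 172 with ERBB2i and 139 with the combination. The tumour list followed the tumour share less closely, at 462 with vehicle, 614 with anti-PD-1, 1849 with ERBB2i, 3086 with the combination and 68.4 with the combination in response. The B cell list reached 2010 with anti-PD-1, where 1 Flt3 member carried 210 of 214 Jchain UMIs. A strict choice of members with under 3 UMIs of each of the T cell, B cell and tumour lists kept 151 of 345 members, and 1 of 16 with the combination in response. Their part in the differences above was not tested beyond the counts given.

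The response library held few but deeply measured dendritic cells. Its 16 members had a general dendritic cell list at 25933 CPM, above the 6269 to 18579 of the other 4 libraries, and a cell cycle list at 489 against 2418 to 7173. Cst3 alone gave 19022 CPM of the general list here, and 3902 to 13086 in the other 4 libraries. Of the response library's members, 9 belonged to the Xcr1 or Clec9a group, 8 of which carried Xcr1. The library held 4 tumour barcodes, so that its tissue cannot be compared with the other tumours, and no ratio was formed.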

How the data were processed

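Whole tumours were dissociated and captured on a Singleron SCOPE-chip, and the authors deposited, per library, counts of UMIs per gene and barcode, as matrices made with CeleScope by the study's methods. The submitters' processing notes also name Cell Ranger, Scanpy and the build mm10, and the sources used here do not give the annotation or strand setting. The counts were used as deposited, from 5 libraries with 21624506 to 88497833 UMIs. Members and gene lists were chosen with earlier results of these data known. Levels are UMIs per 1000000 UMIs of a class (CPM), shares carry exact Clopper-Pearson and levels exact Poisson intervals, and no doublets were removed, because Scrublet's automatic threshold marked 0% of barcodes in 4 libraries. Classes were summed per library and tested with edgeR 4.0.16 (quasi-likelihood, TMM, filterByExpr, library as a block, Benjamini-Hochberg over all genes tested). Rule genes were not tested. The planned subtype fit (10 members per sum) had no residual degrees of freedom, so sums of at least 3 members were used, a choice made after the data were seen. On counts simulated with a fixed dispersion and no library effect, the fit recovered 99 of the 150 changed genes that passed its filter. It made 1 false call (dendritic cells against macrophages). Between Xcr1 or Clec9a and Cd209a it recovered 29 of 51 with 0 false calls. False calls under differences between libraries were not simulated. Named by size were the 8 genes with the largest fold change in each direction against macrophages, 5 between subtype groups and 5 between libraries (at least 5 UMIs in both), besides list members with the most UMIs. Alternatives were DESeq2 1.42.0, other filters, doublet scores, thinning and leaving out each library. A few genes are not reported here.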

Additional observations from a re-analysis of the deposited data

How the results depend on the processing

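The shares of dendritic cells moved in 24 of 45 alternatives. With a mitochondrial share of at most 8% and filters on the median absolute deviation they were 0.0543% with vehicle, 0.130% with anti-PD-1, 0.386% with ERBB2i, 0.296% with the combination and 0.0458% with the combination in response, and without members that had at least 3 UMIs of the T cell, B cell or tumour lists 0.0620%, 0.128%, 0.247%, 0.228% and 0.00989%. Of barcodes with a Ptprc UMI they were 2.77%, 0.5%, 1.54% and 1.86% in the first 4 libraries. In ERBB2i and combination they were 0.293% and 0.221% with at least 2 rule UMIs, 0.411% and 0.393% with at least 10 MHC class II UMIs, 0.354% and 0.300% at 1000 UMIs per barcode (anti-PD-1: 0.210%, 0.270% and 0.218%, with overlapping intervals) and, chosen after seeing the data, 0.373% and 0.375% without Zbtb46 members and 0.365% and 0.287% also without Clec9a members. At 500 UMIs the Xcr1 or Clec9a share was 21.6%, 1.46% and 12.1% with anti-PD-1, ERBB2i and combination and the Cd209a share 19.0% and 12.1% in the last 2. With the filters at 8% mitochondrial share and on the median absolute deviation, the Xcr1 or Clec9a share of ERBB2i was 2.25%. With 2 UMIs of a subtype gene the combination shares were 8.51% (Xcr1 or Clec9a) and 12.1% (Cd209a). Against macrophages, DESeq2 gave 68 higher and 334 lower genes, no filter 205 higher and no library block (no replicate block) 28 and 195. The strict choice of members, which left 2 libraries, gave 286 lower. Leaving out 1 library gave 48 to 388 higher and 273 to 1021 lower (62 and 290 without combination). Of 14, 25 and 11 genes called between Xcr1 or Clec9a and Cd209a, Siglech and Xcr1 or Clec9a, and Siglech and Cd209a, leaving out a library gave 5 to 16, 8 to 26 (13 without combination, 9 without ERBB2i) and 4 to 12. Without high doublet scores the last 2 were 7 and 3, without the block the last was 3, and with 10 members per sum and no block all were 0, with 160, 196 and 187 genes at an unadjusted p under 0.05. Genes named in those 3 contrasts lost their call in 23 of 99, 24 of 99 and 41 of 78 pairs of gene and refit, and none reversed. Between combination and ERBB2i, the strict choice moved the type 1 median to -0.23 (reversed in sign from 0.30), the plasmacytoid to 1.69 and the monocyte to 2.55. In Cd209a members the plasmacytoid median was -0.74, the mature 0.071 (reversed) and the tumour 1.33, and without Zbtb46 members the tumour median was 0.91. The cause was not tested. Every group has replicate number 1 in the labels, so the only pairing is by library. Ratios for vehicle and combination in response were not run for lack of members.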
